A study of Mus musculus with 2 samples.

Results

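Inside the protein-coding genes of colonic macrophages, 520 H3K27ac summits were called in Tle4cKO cells as well as in WT cells. They were chosen from the deposited summit lists: a WT summit on chromosomes 1 to 19 or X was taken when it lay inside a protein-coding gene, over 1 kb from every protein-coding gene end, and had a Tle4cKO summit within 500 bp. The rule took 520 of the 3622 WT summits inside genes (14.4%, exact 95% interval 13.2 to 15.5%), out of 10460 WT summits on these chromosomes, of which 1875 (17.9%) had a Tle4cKO summit within 500 bp. With the WT list shortened to its highest scores, to the length of the Tle4cKO list, the share was 41.5% (233 of 561). With scores of at least 5 in both lists it was 12.3% (140 of 1137). From the side of the Tle4cKO list, 511 of its 705 summits inside genes (72.5%) were partners of these summits. The matching shares over all summits, inside genes or not, are not given for these 3 values. They thus cannot be read as particular to summits inside genes. Being called in both lists is thus what chose these summits and is no finding about them.

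The mutant mice carried Tle4f/f together with Lyz2-Cre (Tle4cKO), and the mice they were set against carried Lyz2-Cre without the floxed gene (WT). All were male C57BL/6 mice aged 11.1 weeks, and both genotypes share the Cre transgene, whose Lyz2 promoter is active in myeloid cells in general and not in macrophages alone. Colonic macrophages, sorted by surface markers, of 4 mice per genotype were pooled, and H3K27ac was profiled by CUT&Tag, which uses an antibody to bring a transposase to marked chromatin. There was 1 library per genotype, so no difference between genotypes has a replicate check and no p-value is given.

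Acetylation of lysine 27 of histone H3 is laid down by the acetyltransferases p300 and CBP and marks active promoters and enhancers. Inside a gene it can mark an enhancer in an intron, which may act on the host gene or on a neighbour, or an internal promoter from which a shorter transcript starts. Tle4 is a Groucho-family corepressor, which is brought to chromatin by DNA-binding factors and recruits histone deacetylases.

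The deposited lists held 2341 Tle4cKO summits and 10460 WT summits on these chromosomes. The authors' score per peak, read as a −log10 p- or q-value, had a median of 4.05 over the Tle4cKO list and 4.47 over the WT list. Read depth is unknown, and a summit missing from a list is one that was not called there. In pooled cells, fewer cells with the mark and less of it per cell cannot be told apart. Shares are given with 95% bounds by the exact Clopper-Pearson method, for counting error alone. For a count of 0 the limit given is instead 3 counts of the total. Of 15 defining macrophage genes, such as Csf1r and Adgre1, 6 had a WT summit inside the gene and none held a summit called in both lists, which with 6 genes allows a share of up to 50%. The marker lists of epithelial, fibroblast, T, B, and enteric neuron and glial cells had no WT summit inside their genes. Those of neutrophils, dendritic cells and endothelium had one in 1 of 6, 2 of 6 and 2 of 5 genes. The endothelial share, 40.0%, equals that of the macrophage genes, so these counts do not set macrophage genes apart. In the endothelial list 1 gene held a summit called in both lists.

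Some shared summits lay at annotated start sites inside the outer bounds of their host, and the DNA before these starts can be read. Such a start need not be a further promoter of a shorter transcript: of 14513 genes with a single start in the table, 8956 (61.7%) have it on an outer end of the gene, so in the others the only listed start lies inside the bounds. The stretches below are the 250 bases before the annotated start of 7 host genes whose shared summit lies in that stretch, 5′ to 3′ in the direction of transcription, from RefSeq on GRCm38.p6, the assembly of mm10. They were chosen after their values were seen, to show the range from CpG-rich to CpG-poor starts. Capitals mark matches, on either strand, to 9 motifs: the CCAAT box (CCAAT), the GC box (GGGCGG), an ETS site (CCGGAAGT), a PU.1 site (GAGGAAGT), the E-box (CACGTG), an AP-1 site (TGANTCA), an NRF1 site, a YY1 site and the TATA box (TATAAA). The ETS and PU.1 letters share GGAAGT.
Rpl19: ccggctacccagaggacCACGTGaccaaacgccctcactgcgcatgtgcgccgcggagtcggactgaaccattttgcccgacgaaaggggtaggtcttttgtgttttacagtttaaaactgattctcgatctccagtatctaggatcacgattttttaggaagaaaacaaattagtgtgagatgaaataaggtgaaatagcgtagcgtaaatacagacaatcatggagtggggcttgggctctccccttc
Egf: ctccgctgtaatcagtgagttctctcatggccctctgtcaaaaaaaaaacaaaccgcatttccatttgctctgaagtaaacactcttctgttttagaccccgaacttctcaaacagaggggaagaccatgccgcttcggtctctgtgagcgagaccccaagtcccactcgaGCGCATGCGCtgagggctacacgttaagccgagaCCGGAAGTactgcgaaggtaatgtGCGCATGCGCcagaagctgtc
Pde4dip: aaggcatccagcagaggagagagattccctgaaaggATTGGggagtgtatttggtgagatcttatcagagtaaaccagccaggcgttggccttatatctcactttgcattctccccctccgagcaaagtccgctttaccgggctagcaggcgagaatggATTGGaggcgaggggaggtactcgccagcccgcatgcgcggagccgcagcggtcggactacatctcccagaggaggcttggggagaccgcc
Nfyc: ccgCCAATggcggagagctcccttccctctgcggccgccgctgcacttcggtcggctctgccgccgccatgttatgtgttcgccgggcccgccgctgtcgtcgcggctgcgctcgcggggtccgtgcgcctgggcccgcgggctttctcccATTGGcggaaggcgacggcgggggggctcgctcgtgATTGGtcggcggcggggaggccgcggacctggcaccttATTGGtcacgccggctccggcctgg
Insig2: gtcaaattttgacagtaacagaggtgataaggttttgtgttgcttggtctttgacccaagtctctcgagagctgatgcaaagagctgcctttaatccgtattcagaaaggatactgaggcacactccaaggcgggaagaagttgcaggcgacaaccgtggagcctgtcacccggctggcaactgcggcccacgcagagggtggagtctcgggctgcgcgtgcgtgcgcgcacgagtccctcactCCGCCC
Kat5: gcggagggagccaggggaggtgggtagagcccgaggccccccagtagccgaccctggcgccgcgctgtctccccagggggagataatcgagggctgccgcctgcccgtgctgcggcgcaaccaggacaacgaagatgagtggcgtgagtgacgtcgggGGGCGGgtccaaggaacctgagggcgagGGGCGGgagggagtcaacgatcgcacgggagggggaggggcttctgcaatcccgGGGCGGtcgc
Adam19: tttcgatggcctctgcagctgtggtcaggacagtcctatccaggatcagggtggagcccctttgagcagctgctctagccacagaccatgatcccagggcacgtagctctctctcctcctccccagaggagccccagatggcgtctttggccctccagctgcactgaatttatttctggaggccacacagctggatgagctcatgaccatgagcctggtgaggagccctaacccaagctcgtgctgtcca

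Rpl19, a protein of the large ribosomal subunit, had its start stretch at chr11:98026674-98026923 on the plus strand. Its summit, at position 98026892 and 32 bp before the start, scored 11.3 in the Tle4cKO list and 20.7 in the WT list. The stretch held 1 E-box and 14 CpG dinucleotides. Egf, the epidermal growth factor, had its stretch at chr3:129725087-129725336 on the minus strand, with 2 NRF1 sites and 1 ETS site, and its summit scored 5.46 in the Tle4cKO list and 14.9 in the WT list. Neither stretch held a GC box.

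The CpG-rich end of the range is shown by Nfyc and Kat5. Nfyc encodes the C subunit of NF-Y, the factor that binds CCAAT boxes, and its stretch at chr4:120825210-120825459 on the minus strand itself held 4 CCAAT boxes and 37 CpG dinucleotides at 74.4% GC. The Nfyc summit scored 3.67 in the Tle4cKO list and 8.81 in the WT list. Kat5, the catalytic subunit of the Tip60 acetyltransferase complex, had 3 GC boxes at chr19:5609745-5609994 on the minus strand and scores of 5.11 in the Tle4cKO list and 6.02 in the WT list.

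Pde4dip, a centrosome and Golgi scaffold, had 2 CCAAT boxes at chr3:97768015-97768264 on the minus strand, and its summit scored 3.51 in the Tle4cKO list and 11.2 in the WT list. Insig2, which holds back sterol synthesis by retaining SCAP in the endoplasmic reticulum, had 1 GC box at chr1:121328025-121328274 on the minus strand and scores of 5.51 in the Tle4cKO list and 8.80 in the WT list. Adam19, a membrane metalloprotease, had none of the 9 motifs and 4 CpG dinucleotides at chr11:46127654-46127903 on the plus strand. Its summit scored 4.31 in the Tle4cKO list and 3.43 in the WT list.

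The 520 summits lay in 497 host genes, which is 19.6% (18.1 to 21.2%) of the 2530 genes with any WT summit inside them. Most hosts held 1 such summit, 27 held 2, and Tex14 held 4. There were 518 distinct Tle4cKO summits among the partners, because 2 of them served 2 WT summits each. The median distance between the partners was 96.5 bp, with quartiles of 37.0 and 219 bp. In all, 264 pairs (50.8%) lay within 100 bp, 419 (80.6%) within 250 bp, and 7 at the same base. The rule caps these distances at 500 bp, so closeness as such is no finding.

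The scores of the shared summits had a median of 4.11 in the Tle4cKO list (1.47 to 112) and 5.93 in the WT list (1.86 to 106.1). The WT summits inside genes that had no Tle4cKO partner had a median WT score of 3.92. Scores of both lists depend on their depth, so the values of the 2 lists are set side by side and not compared. Across the 520 pairs the ranks of the scores went together with a Spearman correlation of 0.47, a description over summits that share the same 2 libraries. Higher WT scores also went with closer partners (Spearman correlation -0.36 with the absolute distance), over distances that the rule caps at 500 bp.

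**Figure D1:**
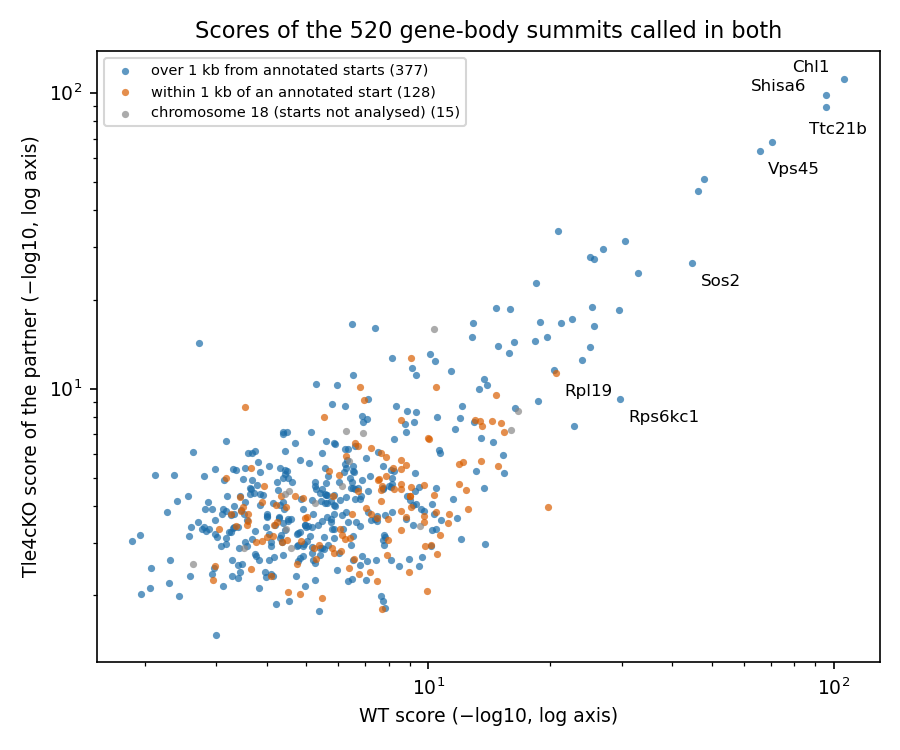
Tle4cKO score (vertical) against WT score (horizontal) of the 520 summits, both −log10 values on log axes, with 1 point per summit, coloured by whether it lies within 1 kb of an annotated start (128), farther away (377) or on chromosome 18 (15). The highest scores lie near the top right corner, and most points lie below a score of 10 in both lists.

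At WT scores of 20 or more, the 25 shared summits had a median Tle4cKO score of 26.6 and lay a median of 13.0 bp from their partner. At WT scores of 5 to 10 there were 229, with a median Tle4cKO score of 4.22 and a median distance of 85.0 bp. Below 5 there were 196, with 3.47 and 144 bp. Among these groups the high-scoring pairs lay closest together, within the 500 bp that the rule allows.

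The share of WT summits inside genes that had a Tle4cKO partner was higher in the groups with higher WT scores. It was 4.77% (36 of 754) below a score of 3, 14.6% (66 of 452) from 5 to 6, and 66.7% (54 of 81) from 10 to 15. At 15 or more, 41 of 43 had a partner (95.3%, 84.2 to 99.4%). The exceptions were Mmadhc, a protein of vitamin B12 trafficking, with a WT score of 21.7, and Tsga10, with 15.7. The nearest Tle4cKO summit to Tsga10 was 131945 bp away. Both were chosen after their values were seen.

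**Figure D2:**
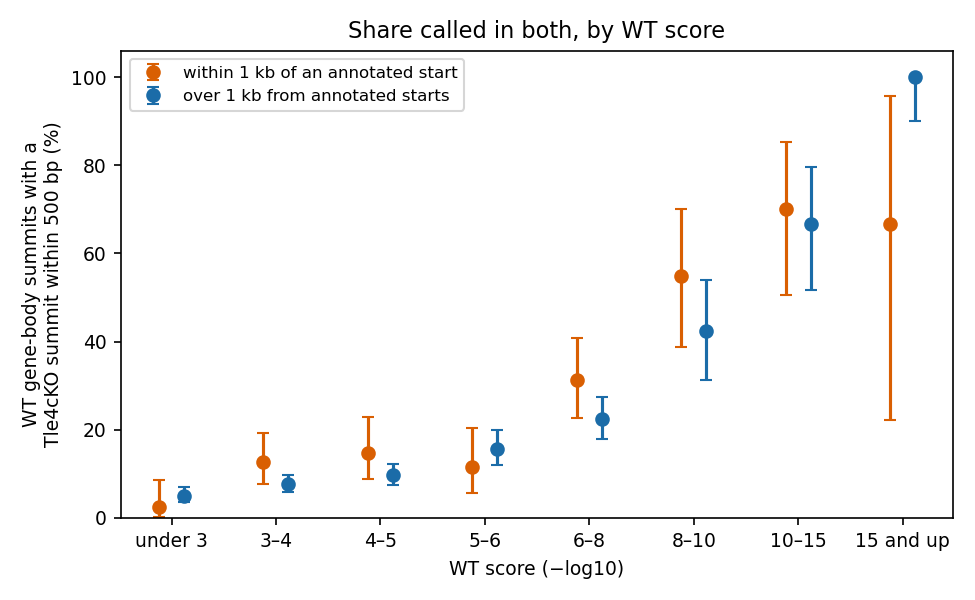
Percent of WT summits inside genes with a Tle4cKO summit within 500 bp, by WT score group, drawn apart for summits within 1 kb of an annotated start and farther away, with exact 95% intervals. From 10 to 15 the shares are 70.0% near starts and 66.7% away from them.

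The top 7 shared summits had the same order in both lists. Chl1, a neural adhesion molecule of the L1 family, led with 112 in the Tle4cKO list and 106.1 in the WT list at position 103649172 of chromosome 6, and its partner lay 3 bp away. Shisa6, which modulates AMPA receptors, scored 98.0 in the Tle4cKO list and 95.8 in the WT list, at the same base of chromosome 11 (66421113). Ttc21b, a subunit of the intraflagellar transport machinery of cilia, scored 89.2 in the Tle4cKO list and 95.5 in the WT list at position 66189338 of chromosome 2. All 3 lay more than 5 kb from any protein-coding gene end.

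Next came Ppp1r9a, the actin-binding neurabin, with 68.3 in the Tle4cKO list and 70.3 in the WT list. Vps45, which serves endosomal membrane fusion, scored 63.4 in the Tle4cKO list and 65.8 in the WT list. Lama1, the laminin alpha 1 chain, scored 51.2 in the Tle4cKO list and 47.9 in the WT list. Cldn34d, a claudin-family gene on chromosome X, scored 46.7 in the Tle4cKO list and 46.2 in the WT list. Several of these 7 genes act mainly in neurons, cilia or the basement membrane. No list of high-signal regions was applied, and whether these positions belong to such a list was not tested.

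Below the top 7 the order differed between the lists. Sos2, a Ras exchange factor, scored 26.6 in the Tle4cKO list and 44.8 in the WT list. Zfand3, a zinc finger protein, scored 18.5 in the Tle4cKO list and 29.6 in the WT list. Rps6kc1, a kinase-like protein, scored 9.22 in the Tle4cKO list and 29.7 in the WT list. It ranked 55 in the Tle4cKO list and 11 in the WT list among the 520.

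Other hosts ranked higher by Tle4cKO score or close to their WT rank. Msl2, a ubiquitin ligase of the MSL complex, scored 29.6 in the Tle4cKO list and 26.9 in the WT list. Col23a1, a membrane collagen, scored 27.4 in the Tle4cKO list and 25.6 in the WT list. Apool, a protein of the mitochondrial inner membrane, scored 34.2 in the Tle4cKO list and 20.8 in the WT list. Smo, the signal transducer of the Hedgehog pathway, also chosen after its values were seen, scored 16.6 in the Tle4cKO list and 21.3 in the WT list.

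Tex14, a gene known for its part in intercellular bridges of germ cells, held 4 shared summits, and each lay within 110 bp of a gene for U3, the small nucleolar RNA needed for early ribosomal RNA processing. The summit beside Rnu3b1 scored 17.2 in the Tle4cKO list and 22.6 in the WT list. The summit beside Rnu3b3 scored 13.2 in the Tle4cKO list and 15.8 in the WT list, and the one beside Rnu3b4 scored 18.5 in the Tle4cKO list and 15.9 in the WT list. The summit beside Rnu3b2 scored 11.5 in the Tle4cKO list and 20.4 in the WT list. All 4 stood above the median of the 520 in both lists.

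The 4 summits span 28143 bp of chromosome 11, in a host of 150811 bp, and the Tle4cKO summits lay 44 to 84 bp and the WT summits 57 to 110 bp from the U3 gene. These U3 genes are 215 to 218 bp long and belong to 1 family of gene copies, so reads may be placed at the wrong copy and the 4 values are not independent. How reads with several placements were treated is not given in the sources used here. A further U3 gene, Rnu3a on chromosome 10, had its nearest Tle4cKO summit 241181 bp away and its nearest WT summit 17596 bp away.

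**Figure D3:**
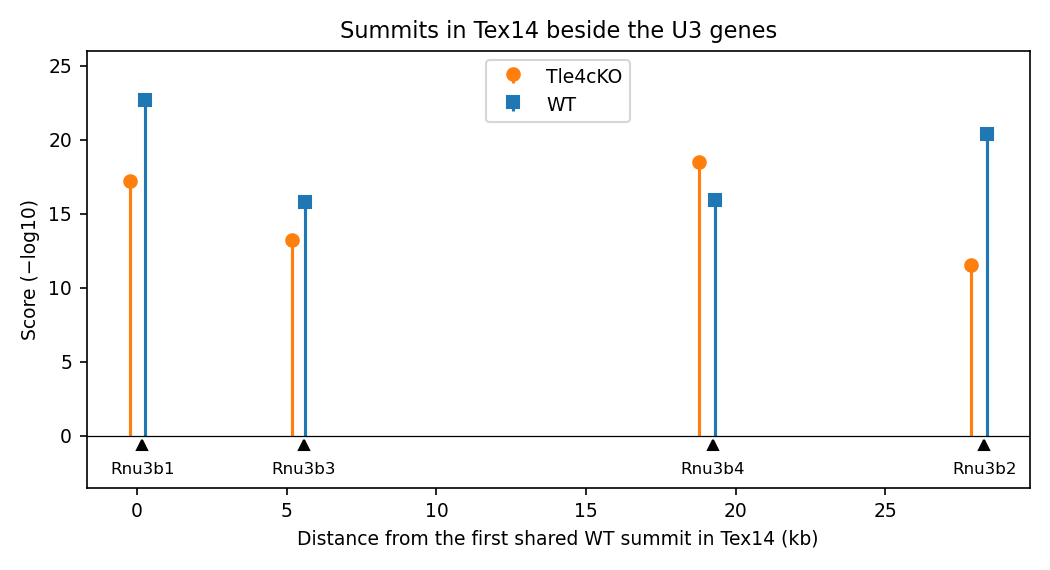
Scores of the shared summits in Tex14 against their distance from the leftmost of them in kb, for the Tle4cKO list and the WT list, each drawn 0.25 kb to the side so that both can be seen, with the U3 genes marked. Each of the 4 summits lies beside a U3 gene, and scores range from 11.5 to 18.5 in the Tle4cKO list and from 15.8 to 22.6 in the WT list.

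Among the hosts with 2 shared summits, Tmem267 held a pair 1932 bp apart, with 31.5 and 27.9 in the Tle4cKO list and 30.6 and 25.1 in the WT list. Tusc3, a subunit of the oligosaccharyltransferase, held a pair 2526 bp apart, with 13.8 and 12.49 in the Tle4cKO list and 25.1 and 23.9 in the WT list. Lpp, a focal adhesion protein, had 12 WT summits inside it, of which 2 were shared. Wdfy4, which serves cross-presentation in dendritic cells, held 2 that lay 100659 bp apart. Such summits share their host and are not separate observations of it.

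The start table has no entry on chromosome 18 and covers 79.9% of protein-coding genes. Elsewhere than on chromosome 18, 128 of 505 shared summits (25.3%, 21.6 to 29.4%) lay within 1 kb of one. Of the other WT summits inside genes, 476 of 2999 (15.9%, 14.6 to 17.2%) did. These intervals do not overlap, but they hold counting error alone, over summits from 1 library per genotype. Among the summits counted as away from starts, 67 shared and 470 other ones lay in hosts with no listed start. Over hosts with a listed start, which was chosen after seeing the data, the shares were 28.9% (126 of 436, 24.7 to 33.4%) for shared summits and 18.5% (466 of 2519, 17.0 to 20.1%) for the others. Read the other way, 128 of 604 WT summits near a start were shared (21.2%, 18 to 24.7%), and 377 of 2900 away from starts (13.0%, 11.8 to 14.3%). The shared summits near starts also had a higher median WT score, 7.20, than those away from them, 5.61. The highest scores lay mostly away from starts. Of the 25 shared summits with WT scores of 20 or more, 1 (4.0%) lay near a start. The median Tle4cKO scores of the shared summits were 3.97 near starts and 4.14 away from them. The part of the WT score in the difference in shares was not tested.

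Within groups of WT score the intervals of summits near starts and away from them overlapped. Some groups are small, so overlap cannot show that the shares are alike. The shares near and away from starts were 12.7% and 7.58% from 3 to 4, and 14.8% and 9.66% from 4 to 5. From 8 to 10 they were 54.8% and 42.3%. The share near starts was the lower one below 3 (2.47% and 5.02%) and from 5 to 6 (11.6% and 15.7%). From 6 to 8, 34 of 109 summits near starts (31.2%, 22.7 to 40.8%) and 68 of 304 away from starts (22.4%, 17.8 to 27.5%) were shared. From 10 to 15, the shares were 70.0% near starts and 66.7% away from them. At 15 or more, 4 of 6 near starts and 35 of 35 away from starts were shared.

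Of the 128, 119 (93.0%) lay at a start of the host itself and 113 (88.3%) within 500 bp. The median position was 134 bp downstream of the start, and 83 (64.8%) lay downstream. In 57 (44.5%, 35.7 to 53.6%) the summit lay 100 to 400 bp downstream. The other WT summits near starts had a median of 147 bp downstream. Of them, 85.1% lay at a start of the host itself, 79.2% within 500 bp and 67.4% downstream. In 37.4% (33.0 to 41.9%) the summit lay 100 to 400 bp downstream, and this interval overlaps that of the shared summits.

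**Figure D4:**
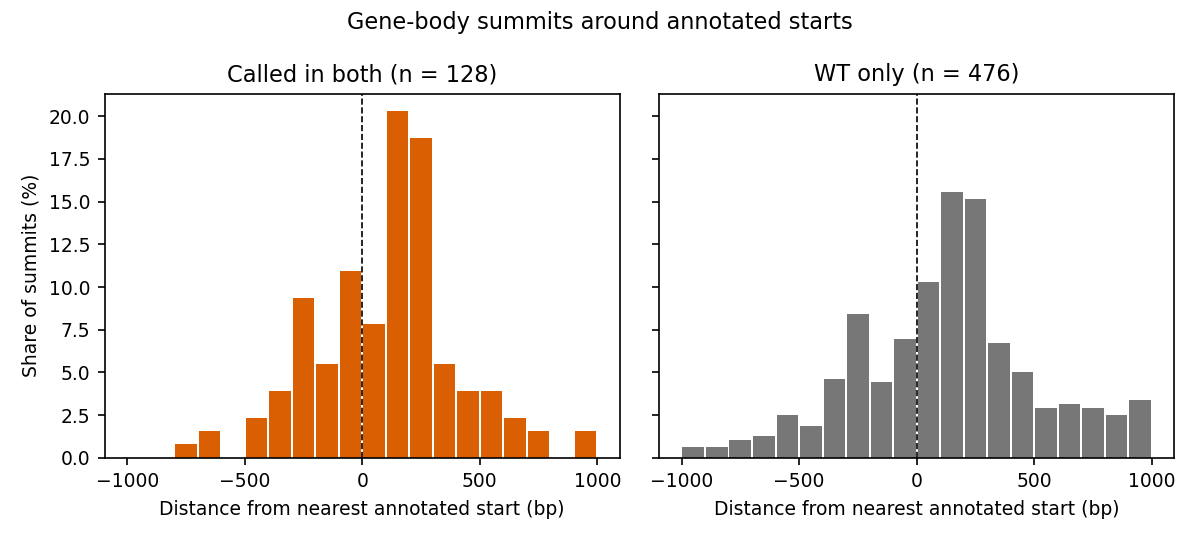
Position of summits relative to the nearest annotated start in bp (negative is upstream), as percent of each group, for the 128 shared summits and the 476 other WT summits near starts. The tallest bars of both panels lie from 100 to 300 bp downstream.

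Zfp638, a zinc finger protein, had its summit 256 bp downstream of a listed start and scored 3.99 in the Tle4cKO list and 19.7 in the WT list. Prdm10, a transcription factor, scored 9.54 in the Tle4cKO list and 14.7 in the WT list, 151 bp downstream. Hdac4, a class IIa histone deacetylase, scored 5.63 in the Tle4cKO list and 12.2 in the WT list. All 3 lay within 1 kb of a listed start of the host. Mettl3, the catalytic subunit of the m6A RNA methyltransferase, scored 4.37 in the Tle4cKO list and 10.3 in the WT list. Rfx5, an activator of MHC class II genes, scored 3.96 in the Tle4cKO list and 7.01 in the WT list. Hdac4 and Prdm10 come from the chromatin list, and the other 3 were chosen after their values were seen.

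The 300-base windows at these starts, from 250 bases before to 50 after, were GC-rich. The 127 windows at shared summits had a median of 60.0% GC, the 464 at other WT summits 60.3%, and all 32851 windows 52.7%. A CpG observed over expected ratio of at least 0.6 was found in 73.2% of the windows at shared summits, in 61.4% at other WT summits and in 35.8% of all windows. The GC box was found in 63.0%, 55.8% and 35.7% of these window groups in the same order, and the NRF1 site in 13.4%, 8.19% and 4.60%. The ETS site was found in 10.2%, 9.05% and 3.89%. For each of these 4 shares the exact intervals of shared and other WT windows overlapped. They were 64.6 to 80.7% and 56.8 to 65.9% for the CpG ratio and 54.0 to 71.4% and 51.2 to 60.4% for the GC box. For the NRF1 site they were 8.0 to 20.6% and 5.86 to 11.1%. The group of all windows takes every listed start, with or without a summit.

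The TATA box was found in 3.94% of windows at shared summits, 6.03% at other WT summits and 13.6% of all. The CCAAT box was found in 34.6%, 34.1% and 37.4%, the AP-1 site in 7.09%, 6.90% and 7.81%, and the PU.1 site, which PU.1 of the myeloid lineage binds, in 2.36%, 3.66% and 3.20%. The E-box was found in 10.2%, 8.19% and 7.15%, and the YY1 site in 0.787%, 1.08% and 0.633%. A match describes these letters only.

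Away from starts, the 377 shared summits lay a median of 18381 bp from the nearest gene end, in hosts with a median length of 90800 bp. Over all 520 the median distance was 12938 bp, against 14904 bp for the other WT summits inside genes, and 292 (56.2%) and 1901 (61.3%) lay over 10 kb from every gene end. Place in the host was measured from the outer 5′ bound of the gene, which need not be an annotated start. The Rpl19 summit, 32 bp before its listed start, had a place of 57.6%. The median place was 37.4% of the host's length for the 436 shared summits whose host strand is known and 37.7% for 2517 others. The first 10% of the host held 18.6% (15.0 to 22.6%) of the shared summits and 15.9% (14.5 to 17.4%) of the others. Of these, 60 of 81 shared summits and 173 of 401 others lay within 1 kb of an annotated start. Away from starts the order was the other way, with 6.77% (4.24 to 10.2%) of shared summits and 11.1% (9.78 to 12.6%) of the others in the first 10%. The median places away from starts were 49.7% for shared summits and 42.5% for the others.

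**Figure D5:**
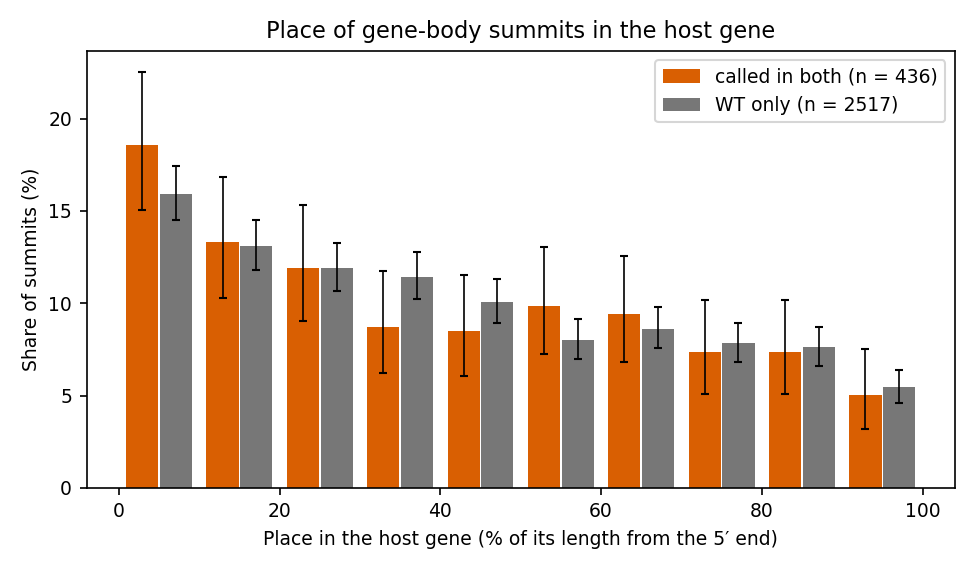
Place of summits along the host gene, in percent of its length from its outer 5′ bound. Bars give the percent of each group with exact 95% intervals, for the 436 shared summits and the 2517 other WT summits. The first 10% of the host holds the largest share of the shared summits, 18.6%, and 60 of these 81 lie within 1 kb of an annotated start.

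A WT summit at a gene end of the host was present for 134 shared summits (25.8%) and 884 of the others (28.5%). A Tle4cKO summit at a gene end of the host was present for 45 (8.65%) and 215 (6.93%). In addition, 37 shared summits (7.12%) and 169 others (5.45%) lay within 1 kb of the end of a non-coding gene. Beside the U3 genes these included Phip, which binds the insulin receptor substrate, with 22.8 in the Tle4cKO list and 18.4 in the WT list near the lncRNA Gm39382. The intervals of these shares overlapped between shared and other summits.

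Among 21 gene lists, shares of hosts are read against 19.6% of all genes with a WT summit inside them. Of 30 macrophage identity genes, 10 had a WT summit inside and none held a shared one, which allows a share of up to 30.0%. Their WT summits had scores such as 6.10 in Itgb2, the leukocyte integrin beta 2 chain, 4.43 in Mertk, which clears apoptotic cells, 3.95 in Cx3cr1 and 3.46 in Csf1r. In the score group of Itgb2, 6 to 8, 24.4% of all WT summits inside genes were shared. In that of Mertk, 4 to 5, it was 10.6%, and in that of Cx3cr1 and Csf1r, 3 to 4, 8.18%. These are shares of summits and not of genes, and the part of the score in the count was not tested. The lipid and nuclear receptor list likewise had 16 genes with a WT summit inside and none with a shared one. The limit of 3 counts allows up to 18.8% there. It is an approximation and lies close to the 19.6% of all such genes, so it cannot show a shortage. The WT summits of this list all scored below 8, in groups in which at most 24.4% of all WT summits inside genes were shared. The TGF-beta and Smad list had 8 and none, which allows up to 37.5%. These limits were not adjusted for the number of lists, and no list was tested against the rest.

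Transcription factors of macrophages had 34 genes with a WT summit inside, of which 7 held a shared one. Creb5, a CREB-family factor, held 2, with 3.56 and 2.56 in the Tle4cKO list and 7.46 and 4.74 in the WT list. Tcf4, an E protein, scored 3.42 in the Tle4cKO list and 9.54 in the WT list. The other 5 were Mef2a, Jarid2, Foxp1, Arid5b and Bach2, at 3.19 to 7.13 in the Tle4cKO list and 2.83 to 6.13 in the WT list.

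Chromatin modifiers had 45 genes with a WT summit inside and 11 with a shared one. Arid1b, a subunit of the BAF remodelling complex chosen after its values were seen, had its summit at the same base in both lists, with 7.94 in the Tle4cKO list and 11.98 in the WT list. Ubiquitin ligases and deubiquitinases had 68 and 11, led by Rnf150 with 8.61 in the Tle4cKO list and 16.4 in the WT list and Usp34, a deubiquitinase, with 6.81 in the Tle4cKO list and 13.5 in the WT list.

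Signalling lists held a few each. The MAP kinase list had 25 genes with a WT summit inside and 6 with a shared one, among them Sos2. The NF-kB and Toll-like receptor list had 16 and 3. Tlr6, a receptor for bacterial lipopeptides, scored 3.74 in the Tle4cKO list and 7.82 in the WT list, and Irak2, a kinase below these receptors, scored 5.00 in the Tle4cKO list and 6.41 in the WT list.

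The actin list had 28 genes with a WT summit inside and 4 with a shared one. Myo5a, a vesicle motor, scored 2.99 in the Tle4cKO list and 13.8 in the WT list, and Macf1, which links actin and microtubules, scored 8.07 in the Tle4cKO list and 6.86 in the WT list. The phosphoinositide list had 25 and 3, with Plcb4, a phospholipase C, at 18.9 in the Tle4cKO list and 25.3 in the WT list.

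Smaller lists held few shared summits. The lysosome list had 18 genes with a WT summit inside and 3 with a shared one, led by Mcoln3, a lysosomal cation channel, with 4.60 in the Tle4cKO list and 10.4 in the WT list. The interleukin and chemokine list had 9 and 2. Il1r1, the receptor of interleukin 1, scored 4.38 in the Tle4cKO list and 5.61 in the WT list, and Ccr1, a chemokine receptor, scored 6.04 in the Tle4cKO list and 5.45 in the WT list. The interferon list had 14 and 2, Ifit2 and Gbp3.

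The Groucho, Notch and Wnt list, to which Tle4 itself belongs, had 21 genes with a WT summit inside and 1 with a shared one. This was Psen2, a subunit of gamma-secretase, which cuts Notch, with 3.46 in the Tle4cKO list and 4.98 in the WT list. The share was 4.76%, beside 19.6% of all genes with a WT summit inside them. With 21 genes and no test, it cannot be read as a shortage. The synapse list had 20 and 4, led by Magi2 in the WT list with 7.74, and with 4.63 for that summit in the Tle4cKO list. Of other cell types, the dendritic cell list had 5 and 1 (Tcf4), the list of fibroblast, muscle and endothelial genes had 3 and 1, the list of neutrophils, eosinophils and mast cells had 1 and none, the epithelial list had 1 and none, and the B, T and NK cell list had none of either. The endothelial host was Pecam1, an adhesion molecule of endothelium and leukocytes, with 6.23 in the Tle4cKO list and 6.23 in the WT list.

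Some further hosts with known roles in myeloid cells were chosen after their values were seen. They are picks from the 497 hosts, while the 10 macrophage identity genes with a WT summit inside held no shared one. Syk, a kinase below Fc and lectin receptors, scored 5.54 in the Tle4cKO list and 6.23 in the WT list, and Lyn, a Src-family kinase, scored 3.28 in the Tle4cKO list and 4.81 in the WT list. Itgad, the integrin alpha D chain, scored 9.10 in the Tle4cKO list and 18.6 in the WT list. P2ry6, a receptor for UDP, scored 4.91 in the Tle4cKO list and 6.86 in the WT list. Pou2f2, the factor Oct-2, scored 6.67 in the Tle4cKO list and 3.16 in the WT list. These hosts stood on both sides of the medians of the 520.

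Summits lay close to both limits of the rule. Just inside 500 bp lay Pde8a (482 bp), Ubac2 (483 bp) and Myof (497 bp), with 2.63 to 3.90 in the Tle4cKO list and 3.45 to 6.52 in the WT list. Just outside lay a further summit in Tcf4 (502 bp), Stard3 (506 bp) and Mad1l1 (507 bp), with 2.67 to 3.42 in the Tle4cKO list and 3.89 to 6.54 in the WT list. Nearest the gene-end limit, Ercc5, Cep20 and Umad1 lay 1009, 1014 and 1015 bp from an end, and Senp6, Slfn5 and Nlrx1 lay outside at 1000, 993 and 992 bp.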

How the data were processed

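H3K27ac CUT&Tag summits of 1 Tle4cKO and 1 WT library were analysed. The authors deposited 1 summit list per library, with a −log10 score (p- or q-value, unstated) per peak. The caller, its settings, a control library and the depth were not given in the sources used here. Per the submitters' processing notes, cutadapt 1.14, Bowtie2 2.2.5 and mm10 were used. Such scores grow with depth, so they rank or filter summits within 1 list only.

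Genes came from RefSeq on GRCm38.p6 as outer bounds, without exons. Start sites came from a RefSeq table that has no entry on chromosome 18 and covers the host of 436 of the 520 summits (83.8%). Positions count from 1. Python 3.11.15, numpy 2.4.6, pandas 2.3.3, scipy 1.17.1 and matplotlib 3.10.9 were used, and the steps were tested on simulated data. The members, gene lists and rules were chosen with earlier results of these data known. Named genes are the 15 highest WT and 10 highest Tle4cKO scores, the 10 hosts with most shared summits, the top 2 of each list by WT score, the 5 highest near non-coding genes and the 3 nearest each limit; not all are printed, and some results, 1 gene list among them, are not reported here. Alternatives were other distances, score minimums, a shortened WT list and autosomes only.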

Additional observations from a re-analysis of the deposited data

Results flagged for a closer look

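Outside the chromosomes used here, the mitochondrial chromosome held 2 Tle4cKO summits and 4 WT summits. The WT count is above 3, the limit that a count of 0 allows, which was used here only as a rule for flagging. It says nothing about a difference between genotypes, as the Tle4cKO count was not 0 and the lists differ in length. They entered no comparison.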

How the results depend on the processing

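There was 1 library per genotype, the depth is unknown, and leaving out a replicate was not possible. No paired analysis was possible because the genotypes share fewer than 2 replicate numbers. With scores of at least 5 in both lists, there were 140 summits in 137 hosts (12.3% of the WT summits inside genes), with a median score of 7.88 in the Tle4cKO list and 10.2 in the WT list. With the WT list shortened to the length of the Tle4cKO list there were 233 in 232 hosts (41.5%). A partner within 250 bp gave 11.6%. Requiring over 2 kb and over 5 kb from gene ends gave median distances of 15975 and 20687 bp, by construction. Counting start sites over hosts with a listed start, chosen after seeing the data, gave 28.9% of shared and 18.5% of other summits near a start. The other 37 values stayed within 1.5 times the count or within the interval of the value reported.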

Other observations

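A few shared summits stood far apart in rank among the 520. They were chosen after their values were seen. The summit in Lmbrd1, a lysosomal protein of vitamin B12 export, at position 24684190 of chromosome 1 scored 14.2 in the Tle4cKO list (rank 32) and 2.73 in the WT list (rank 501). Taok3, a kinase, held a summit with 16.5 in the Tle4cKO list (rank 24) and 6.47 in the WT list (rank 227). In the other direction, Myo5a had rank 415 in the Tle4cKO list and rank 49 in the WT list, and Zfp638 had rank 272 in the Tle4cKO list and rank 26 in the WT list. No replicate library was there to check any of these.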
